A study of Mus musculus with 8 samples.

Results

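The aminoacyl-tRNA synthetases are the enzymes that load each amino acid onto its tRNA, and 37 of their genes were present among the 19301 genes measured in mouse tendon stem cells (TSCs). A gene was taken when its symbol was the letter of an amino acid followed by "ars", with or without a closing a, b, 1 or 2, or when it was Eprs. By these names, 20 genes encode cytosolic enzymes and 17, whose symbols end in 2, encode mitochondrial enzymes. The deposited annotation listed 44 genes in the KEGG pathway of aminoacyl-tRNA biosynthesis, and all 37 synthetase genes were among them. The rule used names alone, but this set of genes was chosen with earlier results of these data known.

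A synthetase recognises both an amino acid and the tRNAs that decode it, so the supply of charged tRNA at the ribosome depends on the whole set. Cytosolic enzymes serve the translation of nuclear genes, and several of them are held with scaffold proteins in the multisynthetase complex, while the mitochondrial enzymes are encoded in the nucleus, imported and used for the few proteins that mitochondria translate themselves. Many cytosolic synthetase genes are described targets of ATF4, the transcription factor of the integrated stress response that is made when amino acids are short or protein folding is disturbed.

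The TSCs were primary cells grown from the patellar tendon of C57BL/6J mice, and RNA was sequenced after 4 days of culture in 1 of 2 media. The low glucose (LG) group, of 4 libraries, had low glucose medium with the solvent DMSO, and the HFHG (high fat, high glucose) group, also of 4 libraries, had high glucose medium with palmitic acid, a saturated fatty acid. The low glucose culture medium contained fetal bovine serum, and serum in the HFHG medium was not stated in the sources used here. Glucose and palmitic acid were changed together, so their effects cannot be told apart, and the age of the donor mice and the number of mice behind the 4 biological replicates were not given in the sources used here.

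The values are FPKM, the reads of a gene divided by its length and by the mapped reads of the library. The recovered library totals ran from 34308108 to 37362725 reads. The first principal component held 81% of the variance and separated the media, and the second held 4.18% and set LG replicate 4 apart from the other libraries. Without that library the counts of synthetase genes called in each direction were the same, 26 lower and 4 higher. The cells carried mRNA of tendon collagens, such as Col1a1 at 529 FPKM in HFHG and 206 FPKM in LG, and low levels of the tendon factor Scx (2.27 and 1.45 FPKM) and of Tnmd (1.10 and 0.614 FPKM). The macrophage lysozyme gene Lyz2 was also high, at 1637 and 1765 FPKM, so macrophage markers were present beside tendon markers.

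Synthetase mRNA was lower in HFHG as a set, and most of the decrease in summed FPKM lay in the cytosolic enzymes. Their summed level fell by 26.8%, from 1150.1 ± 6.34 FPKM in LG to 841 ± 6.40 FPKM in HFHG (SD, n = 4 each). The library sums did not overlap, with 835 to 851 FPKM in HFHG and 1145 to 1159 FPKM in LG. The mean sum of the mitochondrial enzymes was 82.8 ± 3.85 FPKM in LG and 76.2 ± 2.36 FPKM in HFHG (SD, n = 4 each), lower by 7.92%. These library sums overlapped, with 78.6 to 86.9 FPKM in LG and 73.6 to 79.1 FPKM in HFHG. Lars2, the most abundant mitochondrial gene, ranged from 18.5 to 24.3 FPKM in HFHG and from 16.7 to 24.3 FPKM in LG. Its spread within each medium therefore weighs on whether these sums overlap. The mean of Lars2 was 21.3 FPKM in HFHG and 20.4 FPKM in LG. The decrease of the mitochondrial sum thus lay in the other mitochondrial genes, and the 7.92% is that of a sum with Lars2 in it. In a bulk sample, fewer cells of a type and less RNA per cell cannot be told apart.

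Of the 37 genes, 36 passed the filter on low values and were tested with limma among 11710 genes, with Benjamini-Hochberg adjustment over all of them and a call at an adjusted p below 0.05. In HFHG 26 of the 36 were lower (72.2%), where 30.8% of all genes tested were lower. There were 4 higher (11.1%), where 34.0% of all genes were higher, so 30 synthetase genes were called in either direction beside 64.8% of all genes. The 4 HFHG values lay wholly below the 4 LG values for 24 synthetase genes and wholly above them for 3, where 28.1% of all genes tested did the first and 31.1% the second. The median log2 fold change (HFHG minus LG) of the 36 genes was -0.34, beside a median of 0.02 for all genes tested.

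All 20 cytosolic genes passed the test, 18 lower and 2 higher, with a median log2 fold change of -0.40. Among the 16 tested mitochondrial genes 8 were lower, 2 were higher and 6 were not called, with a median of -0.18. Precision differed between both sets. The standard error of the log2 fold change was 0.0210 to 0.0473 for cytosolic genes, with 1386 to 18924 reads per gene and library, and 0.0486 to 0.167 for mitochondrial genes, with 116 to 3731 reads. A change of the size seen in Gars or Kars would therefore not have been detectable in most mitochondrial genes. The plot of FPKM by library shows both sets.

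**Figure D1:**
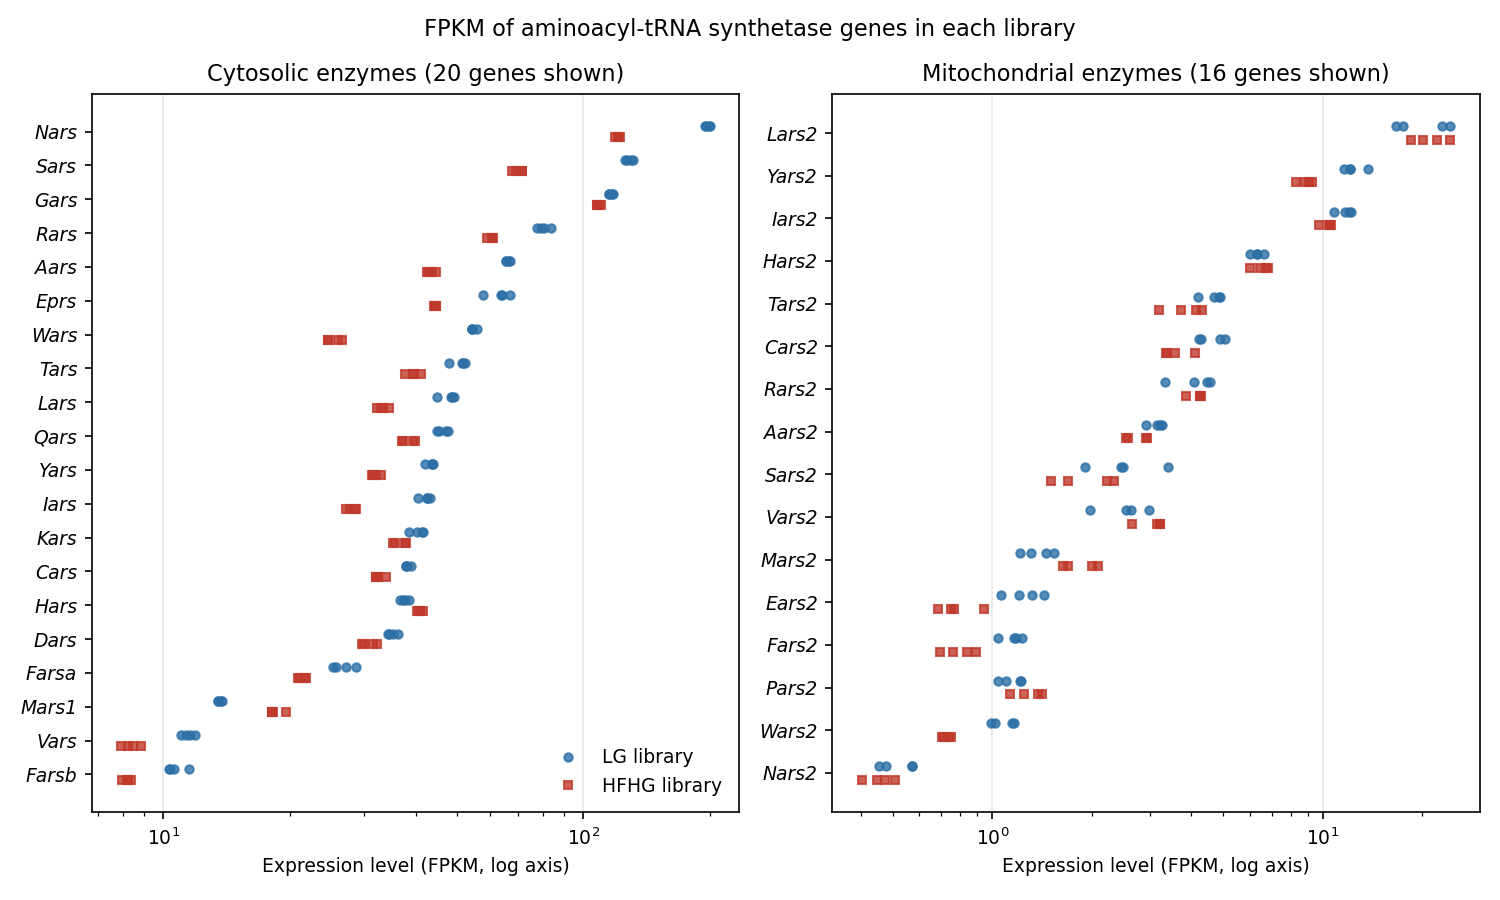
FPKM (log axis) of 36 of the 37 synthetase genes, with 1 blue circle for each of the 4 LG libraries and 1 red square for each of the 4 HFHG libraries, cytosolic genes on the left and mitochondrial genes on the right, in the order of their LG mean. The 4 HFHG squares lie clear of the 4 LG circles in all 20 cytosolic rows, to the right in Hars and Mars1 and to the left in the others, while many mitochondrial rows overlap.

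Marker mRNA of other cells and cell states also differed between the media. Among all genes tested, 30.8% were lower and 34.0% were higher. Of 12 macrophage markers 11 were tested and 9 of them fell (81.8%). Their median log2 fold change was -0.52, beside the cytosolic synthetase median of -0.40, and the largest decreases were in C1qa (-0.97), Mrc1 (-0.86), C1qc (-0.78), C1qb (-0.68) and Tyrobp (-0.62). The summed level of the 12 was 1768 to 1818 FPKM in HFHG and 1957 to 2043 FPKM in LG, and most of it was Lyz2, whose own log2 fold change was -0.11. None of the 12 was at 0 in all libraries, with Cd163 the lowest at 0.0231 FPKM in HFHG and 0.0252 FPKM in LG. Of 12 proliferation genes 10 were tested, 6 were lower and 1 was higher, with a median log2 fold change of -0.35 and sums of 41.3 to 43.9 FPKM and 56.1 to 59.8 FPKM. The 6 endothelial markers summed to 1.63 to 1.74 FPKM in HFHG and 1.88 to 2.23 FPKM in LG, with 1 of 2 tested genes higher and 1 lower. Of 12 tendon markers 9 were higher and 2 lower, with a median of 0.57. The part of these cells and states in the lower synthetase mRNA was not tested.

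The largest decrease was that of Wars, which charges tryptophan tRNA (GRCm38 chr12:108860030-108894174, minus strand). Its FPKM was 26.0, 26.6, 24.7 and 24.6 in the HFHG libraries and 55.8, 54.4, 54.2 and 54.2 in the LG libraries. Every HFHG library was thus far below every LG library, and the replicates of a medium were close together. Wars was 2.15-fold lower, with a log2 fold change of -1.10 (SE 0.0326, limma adjusted p = 2.06e-11). It was the only 1 of the 36 tested genes past the threshold that the study used for differential expression, a log2 fold change beyond 1 in either direction with an unadjusted p below 0.05, which 1.65% of all genes tested passed in the lower direction and 3.68% in the higher direction.

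Sars, which charges serine tRNA and also supplies the serine on which selenocysteine is made, came next (chr3:108424865-108445209, minus strand). Its levels were 69.0, 71.4, 71.5 and 67.8 FPKM in HFHG and 130, 126, 127 and 131 FPKM in LG. The groups were well apart, and the change was 1.84-fold (log2 fold change -0.88, SE 0.0268, limma adjusted p = 2.66e-11). Nars, for asparagine, was the most abundant synthetase mRNA in both media, with 121, 121, 119 and 122 FPKM in HFHG and 195, 200, 199 and 196 FPKM in LG. The 4 LG libraries were again all higher, by 1.64-fold (log2 fold change -0.71, SE 0.0210, limma adjusted p = 2.03e-11).

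Aars, for alanine (chr8:111033144-111057664, plus strand), had 43.6, 42.8, 44.5 and 42.5 FPKM in HFHG and 65.6, 66.8, 65.4 and 66.6 FPKM in LG, a log2 fold change of -0.61 (SE 0.0262, limma adjusted p = 6.69e-10). In the GENCODE annotation 14.3% of its exonic bases overlap Exosc6 on the same strand, so reads there could belong to either gene. Iars, for isoleucine (chr13:49682100-49734267, plus strand), had 28.6, 27.9, 28.7 and 27.2 FPKM in HFHG and 43.1, 42.5, 42.4 and 40.3 FPKM in LG (log2 fold change -0.58, SE 0.0326, limma adjusted p = 7.70e-09). Both genes were lower in every HFHG library than in any LG library.

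Lars, for leucine, whose enzyme is also known as a leucine sensor upstream of mTORC1, was lower by a log2 fold change of -0.52 (33.3 ± 0.958 against 47.7 ± 1.95 FPKM, SD, n = 4, limma adjusted p = 5.52e-08). Eprs carries glutamyl- and prolyl-tRNA synthetase in a single chain and holds both amino acids' cytosolic charging. It had 44.7, 44.2, 44.6 and 44.3 FPKM in HFHG and 63.8, 66.8, 64.0 and 57.8 FPKM in LG. LG replicate 4 was the lowest of the LG values and still above all HFHG values, and the log2 fold change was -0.50 (SE 0.0388, limma adjusted p = 1.64e-07).

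Vars (valine), Yars (tyrosine) and Rars (arginine) followed with log2 fold changes of -0.45, -0.43 and -0.41, and limma adjusted p of 3.15e-06, 4.53e-08 and 5.84e-08. Phenylalanine is charged by an enzyme of paired subunits, and both subunit mRNAs fell by a like amount. Farsb went from 10.7 ± 0.558 to 8.20 ± 0.167 FPKM (SD, n = 4, log2 fold change -0.38, limma adjusted p = 1.45e-05), and Farsa from 26.8 ± 1.54 to 21.4 ± 0.474 FPKM (SD, n = 4, log2 fold change -0.32, limma adjusted p = 1.98e-05). Tars (threonine) changed by -0.37 on the log2 scale (limma adjusted p = 1.83e-06). These 6 genes had no overlap between the media.

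The smallest cytosolic decreases were in Qars (glutamine, log2 fold change -0.27), Cars (cysteine, -0.22), Dars (aspartate, -0.18), Kars (lysine, -0.14) and Gars (glycine, -0.10), with limma adjusted p from 1.50e-05 for Qars to 0.00412 for Kars. Kars and Gars are the only cytosolic synthetases of the list whose genes also supply the mitochondrial enzyme, and they had the smallest decreases of the 18. Gars was at 110, 109, 108 and 108 FPKM in HFHG and 115, 117, 118 and 115 FPKM in LG. The groups did not overlap, although the mean fell by only 6.51%. When FPKM were rescaled to the same sum in every library, neither was called (Gars -0.04, limma adjusted p = 0.180, and Kars -0.08, limma adjusted p = 0.0546). With quantile normalization Gars was again not called (-0.03, limma adjusted p = 0.316), while Kars was.

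Only Mars1 and Hars of the cytosolic genes were higher in HFHG. Mars1, which charges methionine tRNA, initiator tRNA included (chr10:127296221-127311786, minus strand), had 18.2, 18.1, 19.6 and 18.1 FPKM in HFHG and 13.5, 13.5, 13.8 and 13.7 FPKM in LG. Every HFHG library was above every LG library, by 35.5% on average (log2 fold change 0.44, SE 0.0377, limma adjusted p = 4.94e-07). Its exonic bases overlap those of Ddit3 on the opposite strand by 68 bases, 1.99% of its exonic length, and Ddit3 was lower in HFHG (67.5 and 201 FPKM). The library kit kept strand, but whether the counting used it was not given.

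Hars (histidine) had 41.6, 40.9, 40.6 and 40.2 FPKM in HFHG and 37.6, 37.2, 36.7 and 38.4 FPKM in LG. The HFHG libraries were all higher, by 9.06% (log2 fold change 0.12, SE 0.0277, limma adjusted p = 0.00161). Its neighbour Hars2, the mitochondrial enzyme read from the opposite strand, shares 195 exonic bases with it, 7.97% of the exonic length of Hars. Hars2 itself was at 6.51 ± 0.345 FPKM in HFHG and 6.33 ± 0.246 FPKM in LG (SD, n = 4) and was not called.

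**Figure D2:**
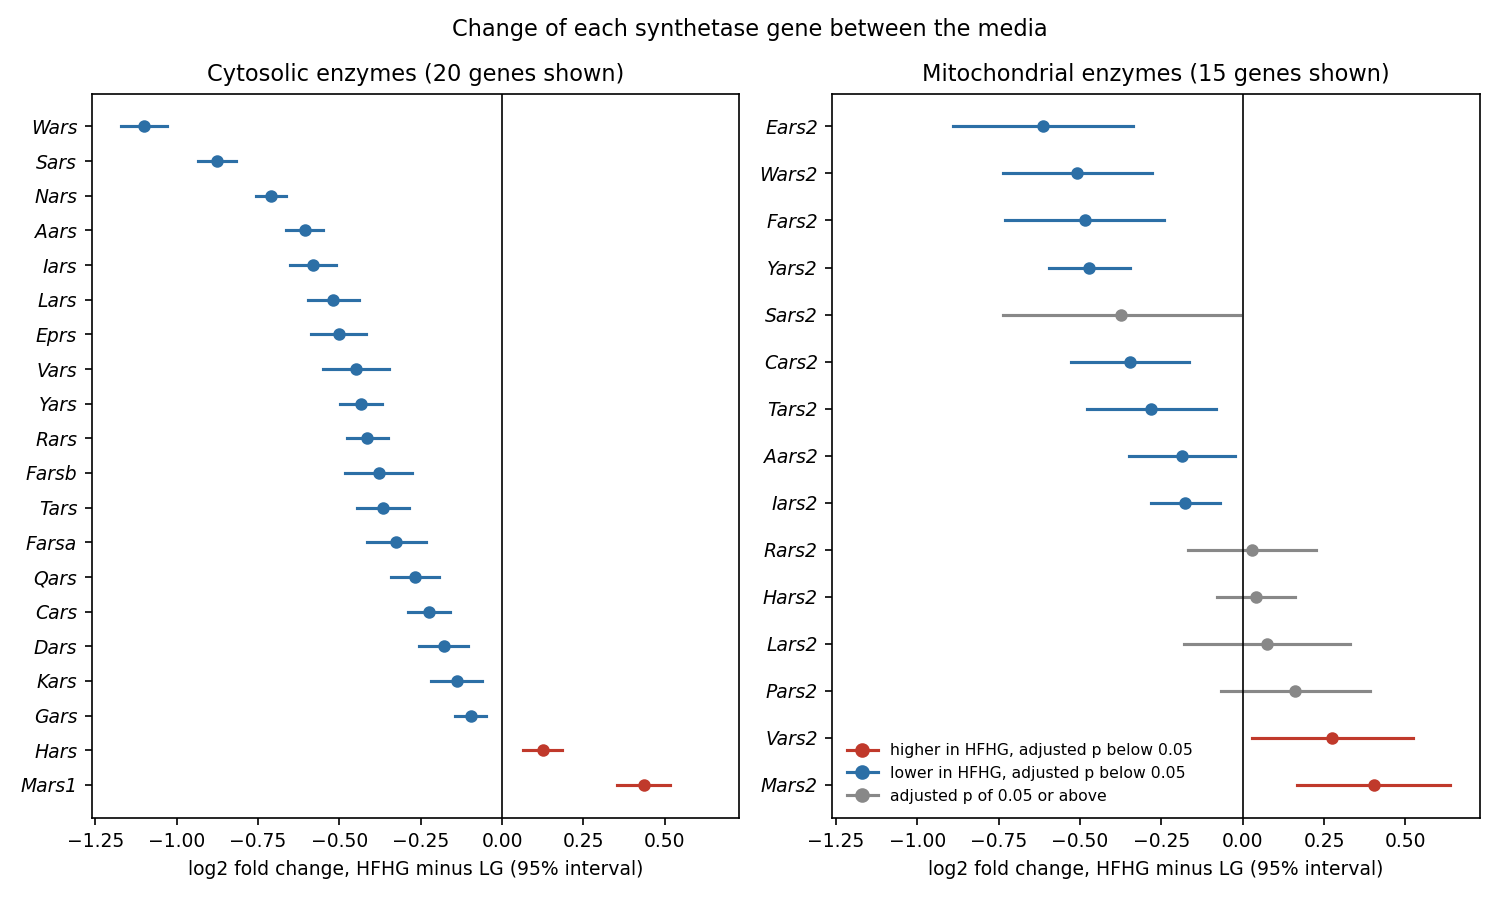
Log2 fold change (HFHG minus LG) of the 20 cytosolic and 15 of the 16 tested mitochondrial synthetase genes, each a point with its 95% interval from limma, in blue where lower in HFHG, red where higher and grey where the adjusted p was 0.05 or above. Intervals are short for cytosolic genes, from Wars at -1.10 to Mars1 at 0.44, and wider for mitochondrial genes, of which 5 are grey.

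The multisynthetase complex holds Eprs, Iars, Lars, Mars1, Qars, Rars, Kars and Dars. Of these 8 genes 7 were lower and 1 was higher, with a median log2 fold change of -0.34, and their summed level fell by 21.2%. The 12 cytosolic enzymes outside the complex had 11 lower and 1 higher, a median of -0.41 and a sum that fell by 29.5%. The 3 scaffold genes of the complex were all lower. Aimp1 was at 36.9 ± 1.98 FPKM in HFHG and 44.9 ± 1.12 FPKM in LG (log2 fold change -0.29, limma adjusted p = 3.29e-05), and Aimp2 at 16.8 ± 0.921 and 21.8 ± 2.36 FPKM (-0.37, limma adjusted p = 4.27e-04). Eef1e1, the scaffold also called AIMP3, had the largest change, from 32.1 ± 1.45 FPKM in LG to 17.5 ± 1.82 FPKM in HFHG (SD, n = 4, log2 fold change -0.88, limma adjusted p = 1.08e-07).

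Synthetases are divided by the fold of their catalytic domain into class I and class II. The split did not separate the cytosolic genes, since 9 of 10 were lower in class I (median log2 fold change -0.44) and 9 of 10 in class II (median -0.35), and each class had 1 gene higher. Among cytosolic genes, those more abundant in LG tended to have the larger decreases. Across these 20 genes, Spearman's rho between the mean LG level and the log2 fold change was -0.51. Pearson's r, with that level on the log2 scale, was -0.444, as a description of genes measured in the same libraries. For the 16 mitochondrial genes the values were 0.165 and 0.0873. The LG values also enter the log2 fold change, so a negative correlation is partly built in, and a dependence on abundance cannot be read from it.

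By a list written from general knowledge of ATF4 targets, 13 cytosolic synthetase genes are described as such targets and 7 are not. Of the 13, 12 were lower and 1, Mars1, was higher, with a median log2 fold change of -0.50. Their summed level fell from 873 ± 6.01 to 605 ± 3.59 FPKM (SD, n = 4), by 30.7%. Of the other 7, 6 were lower and 1, Hars, was higher, with a median of -0.27 and a sum that fell from 277 ± 3.35 to 237 ± 3.22 FPKM (SD, n = 4), by 14.6%. The 9 largest cytosolic decreases were in listed targets, and Gars, also a listed target, had the smallest. The list was written with earlier results of these data known, so the contrast is a description and not an independent test.

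Atf4 mRNA was itself lower, at 184 ± 3.54 FPKM in HFHG and 261 ± 6.60 FPKM in LG (SD, n = 4, log2 fold change -0.50, limma adjusted p = 2.40e-09), although ATF4 is controlled mainly in its translation, which mRNA levels do not show. Atf4 and 19 other genes of the ATF4 response were listed, and 19 of the 20 were lower and 1 was higher, with a median log2 fold change of -0.79. The leading decreases were in Trib3, a pseudokinase that limits the response (log2 fold change -1.81, limma adjusted p = 5.63e-12), Slc7a11, the cystine transporter (-1.58, limma adjusted p = 2.07e-09), and Ddit3, the factor CHOP (-1.57, limma adjusted p = 2.46e-12). Sesn2, a leucine sensor, was higher by 0.27 (limma adjusted p = 2.15e-04).

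The promoters of the synthetase genes were searched for the core letters of the C/EBP-ATF response element that ATF4 binds with a partner, TGATGNAA on either strand (TTNCATCA when read from the other). RefSeq promoters (GRCm38.p6, 250 bases before to 50 after the start) were matched for 27 of the 37 genes. The letters were present in 5 of the 27 (18.5%) and in 4.51% of the 27025 genes with a promoter in that table. All 5 were among the 8 matched genes of the ATF4 list. A match is a description of the sequence only. The stretches that hold the letters are printed to show where the letters lie in the matched promoters. Each runs in its gene's direction, with the matched letters in capitals.
Aars, chr8:111033700-111033866, plus strand: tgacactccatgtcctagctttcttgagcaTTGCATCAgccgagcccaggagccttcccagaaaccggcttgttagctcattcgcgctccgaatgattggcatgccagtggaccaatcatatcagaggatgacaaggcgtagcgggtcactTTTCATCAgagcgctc
Gars, chr6:55037941-55038008, plus strand: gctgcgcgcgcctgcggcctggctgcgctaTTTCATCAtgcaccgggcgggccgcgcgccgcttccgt
Iars, chr13:49682107-49682154, plus strand: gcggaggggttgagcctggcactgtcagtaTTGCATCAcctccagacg
Tars, chr15:11399636-11399703, minus strand: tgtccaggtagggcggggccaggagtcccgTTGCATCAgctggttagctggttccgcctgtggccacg
Yars, chr4:129189876-129189927, plus strand: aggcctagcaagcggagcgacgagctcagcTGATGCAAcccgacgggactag

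Aars held the letters at 2 places, with the first base 112 bases before the start and 9 bases after it. In Gars and Tars the first base lay 30 and 15 bases before the start, and in Iars and Yars 7 and 3 bases after it. The letters were read from the opposite strand in all but Yars. The log2 fold changes of these 5 genes ran from -0.61 for Aars and -0.58 for Iars, through -0.43 for Yars and -0.37 for Tars, to -0.10 for Gars. The larger cytosolic decreases, in Wars (-1.10), Sars (-0.88) and Nars (-0.71), were outside this range. Sars, Eprs and Mars1 were matched and held no such letters in this window, and Wars, Nars, Lars, Cars, Vars, Rars, Hars, Hars2 and Pars2 had no promoter matched.

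The mitochondrial enzymes were mostly at a few FPKM. The largest decrease was in Ears2, which charges glutamate and, in mitochondria, also mischarges the glutamine tRNA for later conversion. Its FPKM was 0.943, 0.768, 0.748 and 0.683 in HFHG and 1.20, 1.06, 1.32 and 1.43 in LG. Each HFHG value was below each LG value, by 1.60-fold on average (log2 fold change -0.61, SE 0.127, limma adjusted p = 9.97e-04). Wars2, for tryptophan, had 0.750, 0.715, 0.737 and 0.706 FPKM in HFHG and 0.991, 1.15, 1.16 and 1.02 FPKM in LG. It too was lower in every HFHG library (log2 fold change -0.51, SE 0.105, limma adjusted p = 9.81e-04).

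Fars2, a single-chain enzyme for phenylalanine, was at 0.694, 0.895, 0.758 and 0.841 FPKM in HFHG and 1.04, 1.16, 1.23 and 1.18 FPKM in LG. All HFHG libraries were lower (log2 fold change -0.49, SE 0.112, limma adjusted p = 0.00215). In the annotation 8.72% of its exonic bases lie opposite those of Nrn1, which was higher in HFHG (50.2 and 36.1 FPKM). Yars2, for tyrosine, was the most precisely measured of the larger mitochondrial decreases, with 8.85, 9.30, 8.28 and 9.05 FPKM in HFHG and 11.6, 12.1, 12.1 and 13.7 FPKM in LG. The media were again apart (log2 fold change -0.47, SE 0.0569, limma adjusted p = 1.10e-05).

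Cars2 (cysteine) was lower by a log2 fold change of -0.35 (limma adjusted p = 0.00284) without overlap, and so was Iars2 (isoleucine), by -0.18 (limma adjusted p = 0.00665). For Iars2, 22.9% of the exonic bases lie opposite those of Rab3gap2, which was at 11.0 FPKM in HFHG and 9.11 FPKM in LG. Tars2 (threonine, log2 fold change -0.28, limma adjusted p = 0.0162) and Aars2 (alanine, -0.19, limma adjusted p = 0.0428) were called with overlapping libraries. Rescaling to the same sum ended the calls of Iars2, Tars2 and Aars2 (limma adjusted p of 0.0694, 0.0550 and 0.167). Aars2 was also not called without HFHG replicate 2 or 4 or LG replicate 1, 2 or 3, with limma adjusted p from 0.0770 to 0.117. Sars2 (serine) was not called at a log2 fold change of -0.37 (95% interval -0.74 to -0.0087, limma adjusted p = 0.0678), and its LG values of 1.91 to 3.39 FPKM overlapped its HFHG values of 1.51 to 2.34 FPKM. It was called without LG replicate 2 (log2 fold change -0.50, limma adjusted p = 0.0175) and without HFHG replicate 1 (-0.46, limma adjusted p = 0.0369). The change was smallest without LG replicate 4 (-0.23, limma adjusted p = 0.206) and without HFHG replicate 2 (-0.27, limma adjusted p = 0.190).

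Both methionine enzymes were higher in HFHG. Mars2, which charges the mitochondrial tRNA used for initiation and elongation alike, had 1.64, 1.69, 2.0 and 2.09 FPKM in HFHG and 1.45, 1.54, 1.31 and 1.21 FPKM in LG. No HFHG library was as low as an LG library (log2 fold change 0.40, SE 0.108, limma adjusted p = 0.00575). Vars2, for valine, had 3.21, 2.64, 3.22 and 3.15 FPKM in HFHG and 2.53, 1.97, 2.62 and 2.97 FPKM in LG. Here LG replicate 4 was above HFHG replicate 2, and the call was marginal (log2 fold change 0.28, SE 0.114, limma adjusted p = 0.0487). The call was lost when any of HFHG replicates 1, 3 and 4 or LG replicates 1, 2 and 3 was left out, with limma adjusted p from 0.0599 to 0.140. Without LG replicate 2 the log2 fold change was 0.17.

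Rars2, Hars2, Lars2 and Pars2 were not called, and their 95% intervals of the log2 fold change contained 0. The intervals were those of Rars2 (arginine, -0.17 to 0.23), Hars2 (histidine, -0.080 to 0.16), Lars2 (leucine, -0.18 to 0.33) and Pars2 (proline, -0.066 to 0.39). Lars2 had the highest level of the mitochondrial set and varied within each medium, with 24.3, 20.1, 22.2 and 18.5 FPKM in HFHG and 24.3, 17.5, 16.7 and 23.0 FPKM in LG. Nars2 (asparagine) was below the filter of 0.5 FPKM in at least 4 libraries, with 0.449, 0.403, 0.506 and 0.473 FPKM in HFHG and 0.572, 0.573, 0.476 and 0.455 FPKM in LG. Its groups overlapped (exact two-sided permutation test, p = 0.171, where 4 against 4 libraries cannot give less than 0.0286). The recovered length of Nars2 was 15488 bases, where its GENCODE exonic length is 6967. Its FPKM, and so its place below the filter, depend on that length.

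Cytosolic and mitochondrial enzymes for the same amino acid formed 17 pairs, with Farsa and Farsb each set against Fars2 and Eprs against Ears2. The cytosolic mRNA was the more abundant per length in all 17. In LG the ratio of cytosolic to mitochondrial FPKM ran from 2.34 for Lars and Lars2 to 381 for Nars and Nars2, with a median of 9.91. In HFHG it ran from 1.56 to 264, for the same pairs, with a median of 10.3. The size of these ratios depends on the gene lengths behind the FPKM. The recovered length was 15488 bases for Nars2 and 2603 for Nars, where their GENCODE exonic lengths are 6967 and 4355. With the GENCODE lengths the ratio for asparagine would be smaller. Both genes were tested in 16 pairs, and both log2 fold changes were below 0 in 10 of them. The Pearson correlation of the changes over these 16 pairs was 0.56 and the Spearman correlation 0.338, as a description of genes measured in the same libraries.

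The ratio was lower in HFHG for 10 of the 17 pairs, and in 7 of these the 4 HFHG ratios lay below all 4 LG ratios. These were the pairs for alanine, isoleucine, leucine, asparagine, arginine, valine and tryptophan. No such ratios were formed for other genes, so no share over all genes stands beside this count. All 20 cytosolic genes were wholly apart between the media on their own, which enters these ratios. The ratio changed most for valine, from 4.55 in LG to 2.74 in HFHG, as Vars was lower and Vars2 was not, and the Vars2 part of this change is the one that LG replicate 2 moved. For isoleucine it went from 3.61 to 2.73, and for tryptophan from 50.7 to 35.0, where both genes fell. For methionine the ratio was 9.91 in LG and 9.97 in HFHG, with both genes higher, and for tyrosine it was 3.50 and 3.61, with both lower. In none of the 7 pairs with a higher ratio in HFHG were the libraries of the media apart.

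**Figure D3:**
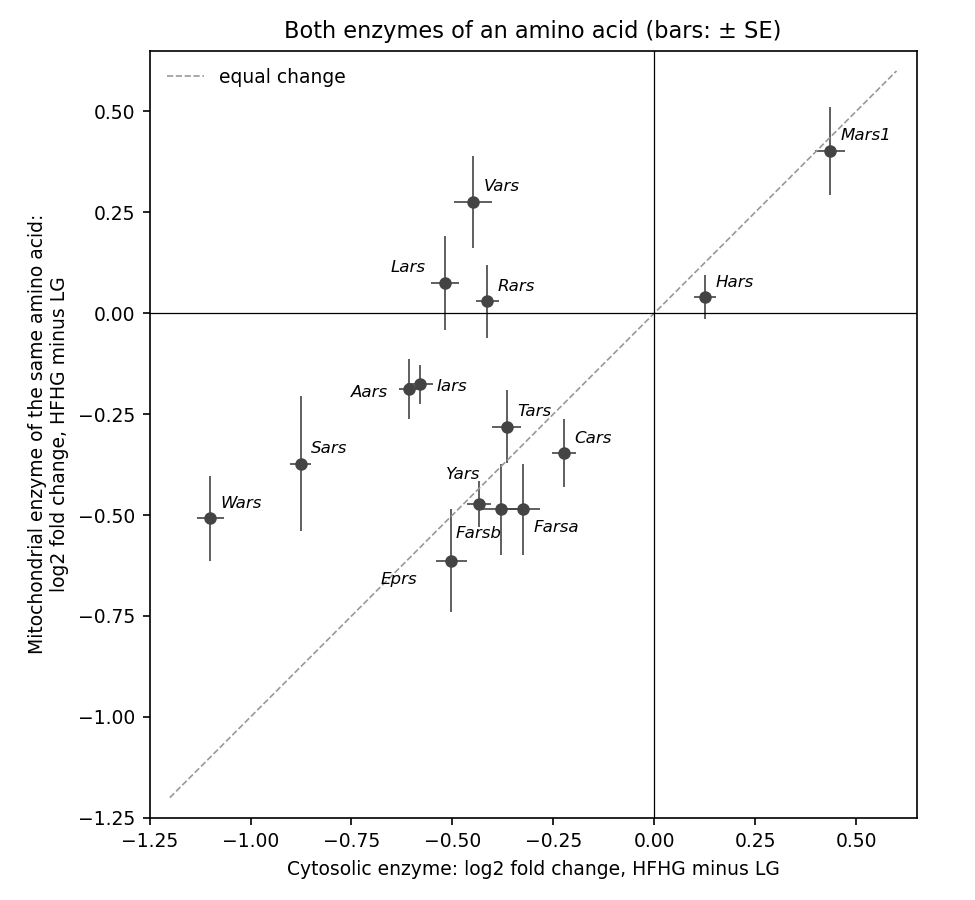
Log2 fold change (HFHG minus LG) of the cytosolic gene on the x axis and of the mitochondrial gene for the same amino acid on the y axis, for 15 of the 16 pairs with both genes tested, labelled by the cytosolic gene, with bars of ± SE and a dashed line of equal change. Mars1 and Mars2 lie together in the upper right at 0.44 and 0.40, and Wars, Sars, Aars, Iars, Lars, Rars, Vars and Tars lie above the line, where the cytosolic decrease was the larger.

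Other genes of tRNA charging were given by lists, beside 30.8% lower and 34.0% higher among all genes tested. Of 7 partners of mitochondrial charging (Gatb, Gatc and Qrsl1 of the amidotransferase that converts mischarged glutamate to glutamine, Mtfmt, Trmu, Tufm and Tsfm), 1 was lower and 6 were not called, with a median log2 fold change of -0.02. The gene called was Tufm, the mitochondrial elongation factor Tu (log2 fold change -0.12, limma adjusted p = 0.0131). Of 10 genes for tRNA export, maturation and delivery to the ribosome, 7 were lower and 2 higher, with a median of -0.39. Xpot, the exportin of tRNA, was lower by a log2 fold change of -0.63 (limma adjusted p = 8.64e-09). The elongation factor subunits Eef1b2 (-0.56, limma adjusted p = 5.34e-09) and Eef1g (-0.53, limma adjusted p = 1.88e-09) were lower as well.

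Among 5 genes of selenocysteine charging 2 were higher, 2 were lower and 1 was not called. Pstk, the kinase that acts on seryl-tRNA, was higher (log2 fold change 0.42, limma adjusted p = 0.00352), as was Sepsecs, the synthase that follows it (0.25, limma adjusted p = 0.0178), while Sephs1 was lower (-0.23, limma adjusted p = 0.00162). Among 7 synthetase-like and editing genes 1 was higher (14.3%), 2 were lower (28.6%) and 4 were not called, with the share of lower genes again near that of all genes. Tarsl2, a threonyl-tRNA synthetase that resembles Tars, went from 1.14 ± 0.0866 FPKM in LG to 2.02 ± 0.172 FPKM in HFHG (SD, n = 4, log2 fold change 0.77, limma adjusted p = 1.39e-05). Ptrh2, a peptidyl-tRNA hydrolase, was lower (log2 fold change -0.30, limma adjusted p = 0.00185).

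**Figure D4:**
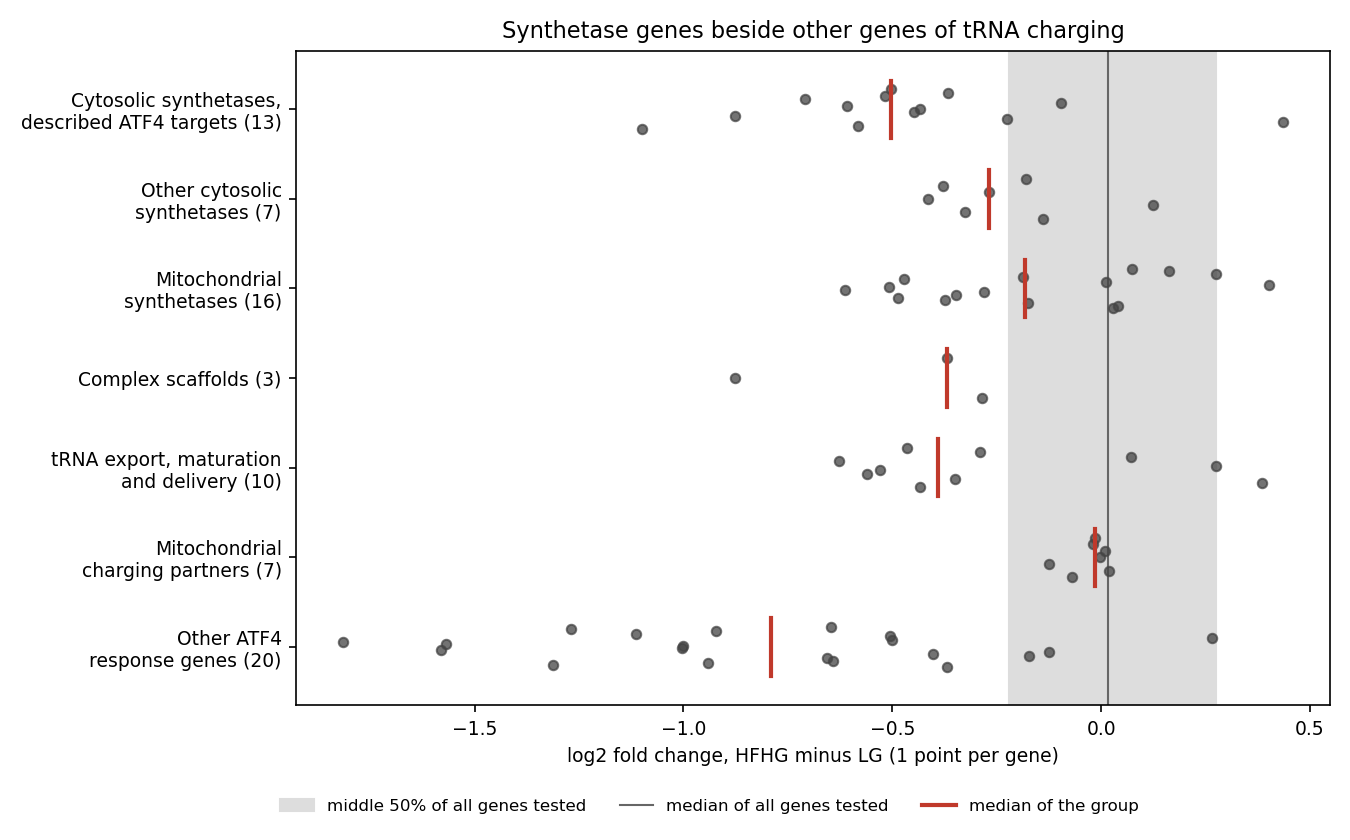
Log2 fold change (HFHG minus LG) of single genes, 1 point per gene, in the synthetase groups and in other lists of tRNA charging and the ATF4 response, with the number of genes in parentheses, a red bar at each group's median, a grey line at the median of all genes tested and a grey band over their middle 50%. The medians are -0.50 for cytosolic synthetases on the ATF4 list, -0.27 for the other cytosolic ones, -0.18 for mitochondrial synthetases and -0.79 for other ATF4 response genes.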

How the data were processed

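Libraries of mRNA from 4 HFHG and 4 LG cultures were grouped by the sample labels. The authors deposited FPKM per gene and library. The submitters' processing notes name HISAT2 2.1.0 and mm10; the counting program, its strand setting and the annotation were not given in the sources used here. Library totals and gene lengths that turn FPKM into whole reads (relative tolerance 1e-06) were recovered for 19301 of 19301 genes, and served for depth and 1 alternative.

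Genes were compared with limma 3.58.1 (R 4.3.3), fitted to log2(FPKM + 0.1) where there was at least 0.5 FPKM in at least 4 of 8 libraries, with a trend in eBayes, no covariate and Benjamini-Hochberg adjustment over 11710 genes. This scale understates changes of low genes. The fit was also run on simulated reads as a check of the code. Far fewer genes were changed there than were called here, and the spread of replicates was fixed. That run therefore does not measure the error of these calls. Positions and overlaps came from GENCODE M21 (GRCm38), promoters from RefSeq. Synthetase genes are named; values of single genes left out of the text are not reported here, and counts include them. Of other lists, the 3 genes with the largest change at an adjusted p below 0.05 are named, with Atf4 and the scaffolds; Sesn2, markers and overlapping genes were named after their values were seen. Genes and lists were chosen with earlier results of these data known. Alternatives were pseudocounts, filters, scalings, the replicate number as a block, robust eBayes, voom on recovered reads and each library left out.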

Additional observations from a re-analysis of the deposited data

Results flagged for a closer look

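In each of 74 groups (37 genes in each medium), the highest and the lowest library were compared with the nearest other library by Dixon's ratio at its 95% critical value. Chance flags about 1 in 20 groups, so 3.7 were expected, and 6 were found. The library far from the others was HFHG replicate 3 for Mars1 (19.6 FPKM), HFHG replicate 2 for Rars (58.9 FPKM) and for Vars2 (2.64 FPKM), HFHG replicate 1 for Rars2 (3.85 FPKM), LG replicate 1 for Wars (55.8 FPKM) and LG replicate 2 for Yars (42.0 FPKM). In Mars1, Rars, Wars and Yars the other libraries of the group lay within a narrow range, and the media did not overlap with or without these values.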

How the results depend on the processing

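Of 36 synthetase genes, 25 kept their direction and their side of the threshold under all 18 alternatives, among them 21 of the 26 lower and 3 of the 4 higher genes. Rescaling to the same sum lowered the count of lower mitochondrial genes from 8 to 5 (Aars2, Iars2 and Tars2 were lost), that of lower cytosolic genes from 18 to 16 (Gars and Kars), and moved the cytosolic median from -0.40 to -0.34. That scaling moved the median of all genes to 0.07, and the share of calls that were higher from 52.5% to 60.9%. Quantile normalization moved the mitochondrial median from -0.18 to -0.24. It lowered the count of lower cytosolic genes from 18 to 17 (Gars was lost) and raised that of lower mitochondrial genes from 8 to 9 (Sars2 was gained). The count of higher mitochondrial genes fell from 2 to 1, with the loss of Vars2, without a filter, with median-ratio scaling and with quantile normalization, and was 1 to 2 with a library left out. The cause of these changes was not tested beyond the settings themselves. Some genes that were not called changed sign. Quantile normalization gave -0.0074 for Hars2 and -0.053 for Rars2. With a library left out, Rars2 was -0.064 (without LG replicate 1) to 0.0806, and Lars2 was -0.0138 (without LG replicate 3) to 0.1663. In the same fits the cytosolic median was -0.4116 to -0.3827 and the mitochondrial median -0.2145 to -0.1543. The replicate numbers did not pair the samples (correlations of same-numbered deviations from -0.0736 to -0.00558). With the replicate number as a block, 7342 genes were called in place of 7592, Aars2 was lost (limma adjusted p = 0.0638) and Sars2 was gained (limma adjusted p = 0.0365). voom on the recovered reads called 7782 genes. Mitochondrial genes had the fewest reads, down to 116 per library, and the larger standard errors, but Lars2, with at least 2428 reads, had an SE of 0.117 and Farsa, with at most 1875, one of 0.0419. The part of depth in the precision was not tested.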
